A study of Mus musculus with 6 samples.

Results

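The 78 genes described here encode mitochondrial ribosomal proteins. They were chosen by symbol: every protein-coding mouse gene named Mrpl or Mrps followed by a number, with a mean expected count of at least 10 over 6 RNA sequencing libraries. By symbol 49 belong to the large subunit (Mrpl) and 29 to the small subunit (Mrps), out of 17254 gene identifiers above 0 in any library, and all 78 passed the filter on low counts. The libraries were made from mouse neural stem or progenitor cells grown in culture, in N2 medium to which EGF and bFGF, both growth factors, had been added. Treatment lasted 48 h and was meant to set different intracellular redox potentials. Control, PQ and NAC were the 3 groups, with 2 libraries in each. The labels spell out neither agent and give no dose, no strain and no treatment of the control. Libraries are numbered 1 and 2 within a group in accession order. The titles number the first libraries of control, PQ and NAC 8, 9 and 10 and the second 11, 12 and 13, and the labels do not say whether these runs are batches. Nothing in the labels says that the libraries came from separate cultures, so the spread that p-values measure here is that between libraries and may be purely technical.

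Mitochondria keep their own ribosome, which translates the few proteins encoded by mitochondrial DNA, all of them subunits of the respiratory chain and ATP synthase. Its rRNAs are made inside the organelle, whereas its proteins are encoded in the nucleus, translated in the cytosol and imported. Many of the proteins descend from bacterial ribosomal proteins, and the others were added during the evolution of mitochondria. The large subunit forms peptide bonds and opens into the exit tunnel, and the small subunit holds the messenger RNA and the decoding site. Some symbols do not match the structure. Mrps30 and Mrps18a sit in the large subunit, and Mrps36 is now known as a component of the 2-oxoglutarate dehydrogenase complex.

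Summed expected counts were 9680436 to 10698241 per library, and the 78 genes held 0.295% to 0.332% of them. Markers of neural stem and progenitor cells summed to 6113.4 and 6256.3 CPM (read counts scaled to library size) in the control libraries, 6686.5 and 6828.4 with PQ and 4625.7 and 4655.4 with NAC, and none of the 10 was at 0. Vim held most of that sum, at 4305.7 and 4058.0 CPM in control and 2466.7 and 2488.7 CPM with NAC (TMM-scaled, as are the single genes below). Astrocyte markers, 6 genes with none at 0, summed to 123.0 and 135.4 CPM in control, 139.3 and 146.8 with PQ, and 258.7 and 263.2 with NAC, most of it Aldoc. Neuronal markers, of which Rbfox3 of 7 was at 0, summed to 195.8 and 204.9 CPM, 185.8 and 192.1, and 328.3 and 364.3 in the same order, nearly all of it Map2 (359.0 and 317.9 CPM with NAC). The 8 markers of the oligodendrocyte lineage lay between 1554.1 and 2179.2 CPM, with Mog and Mag at 0. Microglial and blood cell markers summed to at most 11.2 CPM, fibroblast and pericyte markers to at most 7.12 CPM and endothelial markers to at most 1.96 CPM.

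Levels per unit of transcript length (FPKM, means over the 6 libraries) spread 23.3-fold within the large subunit and 21-fold within the small. The large subunit ran from 5.31 FPKM for Mrpl57 to 123.9 FPKM for Mrpl42, with a median of 33.1 FPKM. Mrpl42, a protein without a bacterial counterpart, read 117.4 to 130.7 FPKM across the libraries, and Mrpl20, an rRNA-binding protein of bacterial descent, read 99.7 to 124.8 FPKM, so the ranges of the 2 highest genes overlapped. Mrpl12, the stalk protein that recruits translation factors, followed at 78.1 ± 8.66 FPKM (SD, n = 6), and Mrpl30 at 69.2 ± 8.51 FPKM (SD, n = 6). Their ranges of 64.0 to 88.9 and 58.0 to 82.7 FPKM overlapped as well.

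At the low end of the large subunit stood Mrpl57, with 4.78 to 5.76 FPKM in the 6 libraries, and Mrpl19, with 5.61 to 7.68 FPKM. Mrpl35 averaged 8.7 FPKM and Mrpl44, which has a ribonuclease III fold, 11.7 FPKM. The small subunit ran from 9.21 FPKM for Mrps14 to 193.8 FPKM for Mrps6, with a median of 29.6 FPKM. Mrps6, a protein of the platform of the small subunit, stood 2.34-fold above the next small subunit gene, Mrps21, at 82.9 FPKM. Its lowest library, at 149.3 FPKM, lay above the highest Mrps21 library, at 92.8 FPKM. Mrps6 shares exonic bases on the same strand with Slc5a3 and Gm49711, and its expected counts were fractional in all 6 libraries. The part of these genes in its level was not tested. Mrps33 (50.9 FPKM) and Mrps15 (49.6 FPKM) came next. Mrps12, part of the decoding centre (14.0 FPKM), Mrps25 (14.6 FPKM) and Mrps26 (16.5 FPKM) stood with Mrps14 at the low end.

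**Figure D1:**
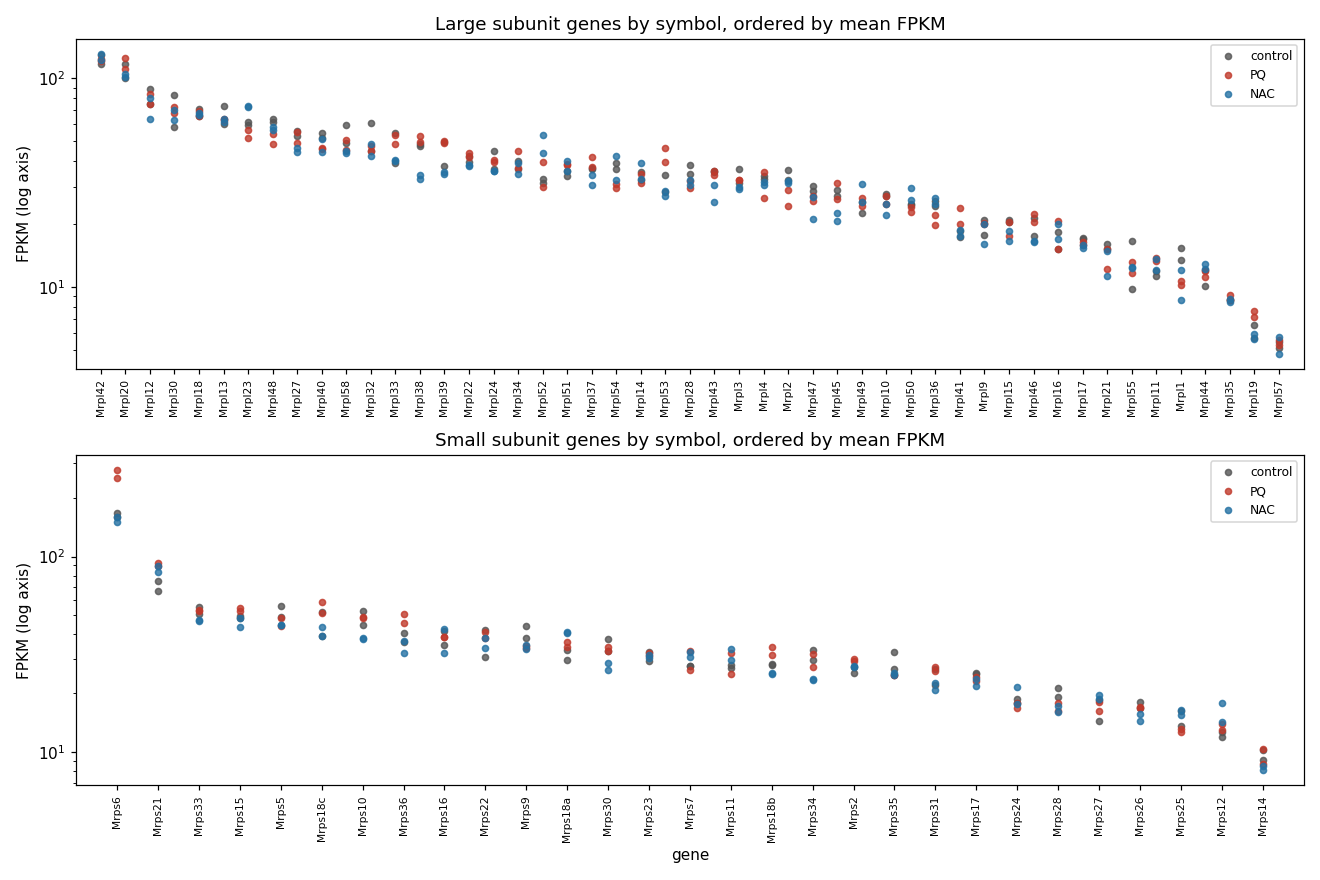
FPKM (log axis) of each gene in every library, large subunit above and small subunit below, ordered by mean; each point is 1 library, coloured by group. Mrps6 stands apart from the other small subunit genes in all 6 libraries, and its PQ libraries are the highest. The part of genes that overlap Mrps6 in its level was not tested.

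The summed level of the large subunit genes was 2009.5 and 2117.1 CPM in control, 1956.9 and 2043.3 CPM with PQ and 1839.8 and 1863.4 CPM with NAC. The NAC libraries lay below all others, at 89.7% of the control mean, and the PQ libraries overlapped the control. In FPKM the large subunit stood at 93.9% of control with NAC, and NAC 2 (1761.7 FPKM) lay above PQ 1 (1752.6 FPKM). The small subunit genes summed to 1122.9 and 1215.6 CPM in control, 1222.6 and 1238.0 CPM with PQ and 1088.9 and 1069.1 CPM with NAC. They stood at 105.0% of control with PQ, both libraries above both control libraries, and at 92.3% with NAC, both below. Without Mrps6 the small subunit stood at 98.7% of control with PQ, between the control libraries, and scaled to library size only at 101.0%, also between them. In FPKM it stood at 104.0% without Mrps6, and both PQ libraries (933.6 and 948.0 FPKM) lay above both control libraries (879.3 and 925.2 FPKM). These sums carry no test. In a bulk library less RNA per cell and fewer cells of a type cannot be told apart, which holds for every comparison here.

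**Figure D2:**
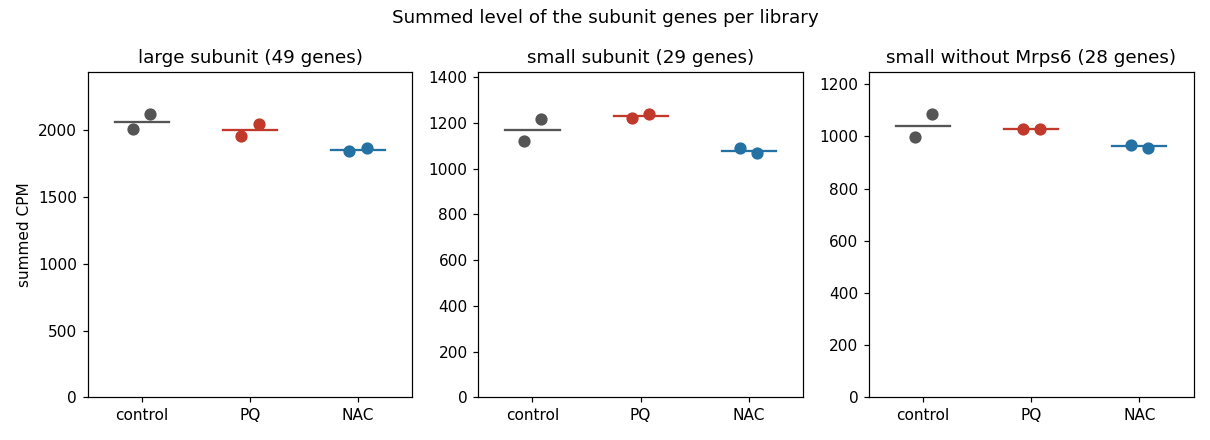
Summed CPM of the large subunit genes, the small subunit genes and the small subunit genes without Mrps6; points are libraries and lines group means of 2. The NAC libraries are lowest in each panel, and the PQ libraries exceed both control libraries in the small subunit panel with Mrps6 but not in the panel without it (in FPKM, not plotted, they exceed both there too).

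PQ against control asked what differed after 48 h with PQ. Mrps6 rose 1.58-fold, Mrpl48 and Mrpl2 fell, and 75 of the 78 genes did not pass the test. Mrps6 read 124.9 and 131.1 CPM in control and 195.0 and 210.1 CPM with PQ, so the groups did not overlap (log2 fold change 0.66 ± 0.1 SE, adjusted p = 0.00013 by edgeR's quasi-likelihood test). Leaving out any 1 library kept its adjusted p at or below 0.0063, and DESeq2 gave 3.4e-08. The NAC libraries held 122.3 and 112.9 CPM, close under the control (-0.12 ± 0.1, adjusted p = 0.43). Mrps6 (Entrez gene 121022, chr16:92058336-92112227 in GRCm38.p6) shares 10.4% of its exonic bases, on the same strand, with Slc5a3, the myo-inositol transporter gene that lies within its span, and 19.9% on the same strand with Gm49711, a gene annotated as protein-coding that was not tested here. Slc5a3 read 615.4 and 501.5 CPM in control, 603.6 and 596.7 CPM with PQ and 406.8 and 403.3 CPM with NAC, with an adjusted p of 0.52 for PQ against control. The part of both genes in the Mrps6 counts was not tested.

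The 250 bases before the Mrps6 start are shown because this gene changed most among the 78. Capitals mark 4 matches to the Sp1 motif GGGCGG, the first pair overlapping, at 114, 109, 95 and 79 bases before the start (plus strand, chr16:92058086-92058335, GRCm38.p6, from RefSeq).
Mrps6: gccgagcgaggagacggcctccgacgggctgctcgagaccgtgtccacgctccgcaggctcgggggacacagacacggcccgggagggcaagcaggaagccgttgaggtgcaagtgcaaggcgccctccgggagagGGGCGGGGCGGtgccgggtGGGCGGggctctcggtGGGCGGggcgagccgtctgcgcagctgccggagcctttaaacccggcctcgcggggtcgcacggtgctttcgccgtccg

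Both falls with PQ were in the large subunit. Mrpl48, a protein of the central protuberance, read 58.8 and 61.5 CPM in control and 45.5 and 49.7 CPM with PQ (-0.34 ± 0.1, adjusted p = 0.033, edgeR). Mrpl2, which lies close to the peptidyl transferase centre, read 36.3 and 33.0 CPM in control and 24.4 and 28.4 CPM with PQ (-0.39 ± 0.13, adjusted p = 0.04, edgeR). Neither pair of groups overlapped, and in both genes the NAC libraries lay between them. Neither call was firm: DESeq2 gave adjusted p of 0.087 and 0.12. The Mrpl48 call ended without control 2 (adjusted p = 0.12), PQ 1 (0.22) or PQ 2 (0.094), and the Mrpl2 call without any 1 library except control 2 (adjusted p from 0.051 to 0.27).

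The members called were 3 of 78 (3.85%), against 17.9% of the 12813 genes tested. By direction, 1 gene was called higher and 2 lower, where 9.07% of all genes were called higher and 8.8% lower. With scaling to library size only, 3 members were called higher (Mrps6, Mrpl53 and Mrps21) and 0 lower. What share of all genes was called with that scaling, or with a library left out, is not given here. With 1 library left out the calls lower numbered from 0 (without PQ 1 or PQ 2) to 5 (without control 1), and the calls higher were 3 without control 2 and 1 otherwise. Just short of the threshold with TMM scaling were Mrpl53, at 17.2 and 20.8 CPM in control and 23.6 and 27.1 CPM with PQ (adjusted p = 0.055), and Mrps21, at 29.8 and 26.8 CPM in control and 36.7 and 34.9 CPM with PQ (adjusted p = 0.064). The median log2 fold change was -0.05 for the large and 0.01 for the small subunit, where all genes tested had a median of 0.0 and quartiles of -0.19 and 0.21. Estimates below 0 numbered 42 of 78 (53.8%, against 50.4% of all genes). In 20 genes both PQ libraries lay below both control libraries (25.6%, against 28.2%) and in 14 above (17.9%, against 29.0%). A change of 1.5-fold or more was fitted for 1 member, and for 12.0% of all genes.

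NAC against control asked what differed after 48 h with NAC. In this comparison 7 of the 78 genes fell, Mrpl38, Mrpl45, Mrpl43, Mrpl39, Mrps30, Mrps10 and Mrps34, and Mrpl52 rose. That was 8 of 78 (10.3%), against 17.9% of all genes tested. The members called lower were 7, where 9.26% of all genes were called lower, and 1 higher, where 8.65% were. Scaled to library size only, 5 were called lower and 2 higher, Mrps18a besides Mrpl52, and the share of all genes called is not given here. The changes were small and leaned down: 60 of 78 estimates were below 0 (76.9%, against 50.3% of all genes), and in 39 both NAC libraries lay below both control libraries (50%, against 28.3%). In 8 genes both NAC libraries lay above both control libraries (10.3%, against 28.3%). The median log2 fold change was -0.15 for the large and -0.19 for the small subunit, with quartiles of -0.2 and 0.19 over all genes. No member reached a fitted 1.5-fold change, which 13.7% of all genes did.

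Mrpl38, a protein of the central protuberance that belongs to the phosphatidylethanolamine-binding protein family, had the smallest p. It read 68.2 and 67.7 CPM in control, 69.4 and 72.5 CPM with PQ and 45.6 and 47.2 CPM with NAC. The NAC libraries stood clear below the other 4 (-0.55 ± 0.1, adjusted p = 0.00072, edgeR), and leaving out any 1 library kept the adjusted p at or below 0.014. Of the 8 calls, this was the only one that held in every such fit.

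Mrpl45 lines the exit tunnel and ties the ribosome to the inner membrane, where its products are inserted. It fell from 71.8 and 68.0 CPM to 50 and 54.0 CPM (-0.43 ± 0.11, adjusted p = 0.0096, edgeR). Mrpl39, which resembles a domain of threonyl-tRNA synthetase, read 71.1 and 93.0 CPM in control and 64.5 and 62.7 CPM with NAC (adjusted p = 0.034), and its control libraries stood far apart. Mrpl43, a protein with a thioredoxin-like fold, read 43.5 and 43.2 CPM in control and 30.2 and 35.8 CPM with NAC (adjusted p = 0.025). The 250 bases before the starts of Mrpl39 and Mrpl43 are shown because these 2, of the 5 genes that fell with NAC and matched the promoter table, held a match to NRF1, ETS or YY1. Capitals mark GCGCATGC (NRF1) on both strands in overlap, 125 and 123 bases before the start of Mrpl39. In Mrpl43 they mark CCGGAAG (ETS) at 56 and 12 bases and, on the other strand, the Sp1 motif at 144 bases before the start. Both lie on the minus strand, at chr16:84735245-84735494 and chr19:45006443-45006692 (GRCm38.p6, from RefSeq).
Mrpl39: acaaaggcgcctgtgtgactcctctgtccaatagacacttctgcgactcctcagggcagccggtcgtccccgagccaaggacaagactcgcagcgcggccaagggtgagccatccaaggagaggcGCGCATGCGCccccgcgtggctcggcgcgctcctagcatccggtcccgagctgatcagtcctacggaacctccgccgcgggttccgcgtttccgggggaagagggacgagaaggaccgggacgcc
Mrpl43: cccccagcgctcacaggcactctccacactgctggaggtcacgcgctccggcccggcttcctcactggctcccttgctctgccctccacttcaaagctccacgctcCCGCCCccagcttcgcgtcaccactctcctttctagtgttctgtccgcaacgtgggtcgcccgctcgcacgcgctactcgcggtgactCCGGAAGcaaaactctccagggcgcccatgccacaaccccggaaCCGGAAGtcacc

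Of the genes with a small subunit symbol, Mrps30, which sits in the large subunit, fell from 52.7 and 61.0 CPM to 41.2 and 44.1 CPM (-0.42 ± 0.11, adjusted p = 0.013, edgeR). Mrps10, a protein of the head of the small subunit, fell from 46.1 and 54.8 CPM to 38.6 and 37.8 CPM (adjusted p = 0.02). Mrps34 fell from 29.6 and 26.5 CPM to 20.2 and 20.4 CPM (adjusted p = 0.025). In all 3 the NAC libraries lay below both control libraries. Mrps34 shares 63.4% of its exonic bases with Mapk8ip3 on the other strand, which also fell (-0.34 ± 0.11, adjusted p = 0.042, edgeR), and 37.0% with Nme3 on its own strand. Mrpl43 shares 33.4% with Twnk, the gene of the mitochondrial DNA helicase, on the other strand, which rose (0.45 ± 0.12, adjusted p = 0.014, edgeR). Whether counting used the strand is not given in the sources used here, and the part of these neighbours in the counts was not tested.

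Mrpl52 moved the other way, from 12.1 and 12.9 CPM in control to 16.5 and 19.9 CPM with NAC (0.54 ± 0.17, adjusted p = 0.032, edgeR). Mrps18a, a bS18 family protein of the large subunit, read 28.4 and 25.6 CPM in control and 33.7 and 34.2 CPM with NAC, just short of the threshold (0.33 ± 0.12, adjusted p = 0.07). By structure both belong to the large subunit, in which most estimates were below 0.

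Of the large subunit genes with a bacterial counterpart, 0 of 30 were called by edgeR, although 26 of the 30 estimates were below 0. Of those without one, 5 of 19 were called, 4 lower and Mrpl52 higher, where of all genes tested 17.9% were called, 9.26% lower and 8.65% higher. The medians were close, -0.15 and -0.17, and the difference between the classes was not tested. In the small subunit, 1 of 16 with a counterpart (Mrps10) and 1 of 10 without (Mrps34) were called. Mrps30, called lower, and Mrps18a and Mrps36, not called, were placed in none of these classes.

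Most of the NAC calls ended in at least 1 fit that left out a library. Each such fit also has fewer libraries and leaves 1 group with a single one. Whether a call ended through the library left out or through the smaller fit was not tested. For these fits and for DESeq2 the share of all genes called is not given here. The numbers of members called below cannot be set against it. The genes called lower numbered 11 without control 1, 3 without control 2, 6 without PQ 1 or PQ 2, 2 without NAC 1 and 4 without NAC 2. Without NAC 1 the calls of Mrpl39, Mrpl43, Mrpl45, Mrps10, Mrps30 and Mrps34 ended (adjusted p 0.089 to 0.27). Without control 2 those of Mrpl39, Mrpl43, Mrpl52, Mrps10 and Mrps30 ended (0.053 to 0.43), without control 1 those of Mrpl43, Mrpl52 and Mrps34 (0.058 to 0.12), and without NAC 2 those of Mrpl39, Mrpl52, Mrps10 and Mrps34 (0.098 to 0.24). The Mrpl39 call also ended without PQ 1 (0.055) or PQ 2 (0.052). DESeq2 called 3 of the 7 lower, Mrpl38 (0.00048), Mrpl45 (0.019) and Mrps30 (0.037). The marker lists did not move as wholes. Of 9 stem cell markers tested in NAC against control, Vim, Sox2 and Nes fell, Slc1a3 rose and 5 did not pass, with a median log2 fold change of 0.07, and Vim made up most of the fall in the sum. Of 6 astrocyte markers Aldoc, Aqp4, Slc1a2 and Gfap rose (median 1.13) and Aldh1l1 stood at -0.49 (adjusted p = 0.3). Of the 3 neuronal markers tested Map2 rose (0.77) and Tubb3, under 5 CPM in every library, fell (-2.27). The part of these cell types in the values above was not tested.

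**Figure D3:**
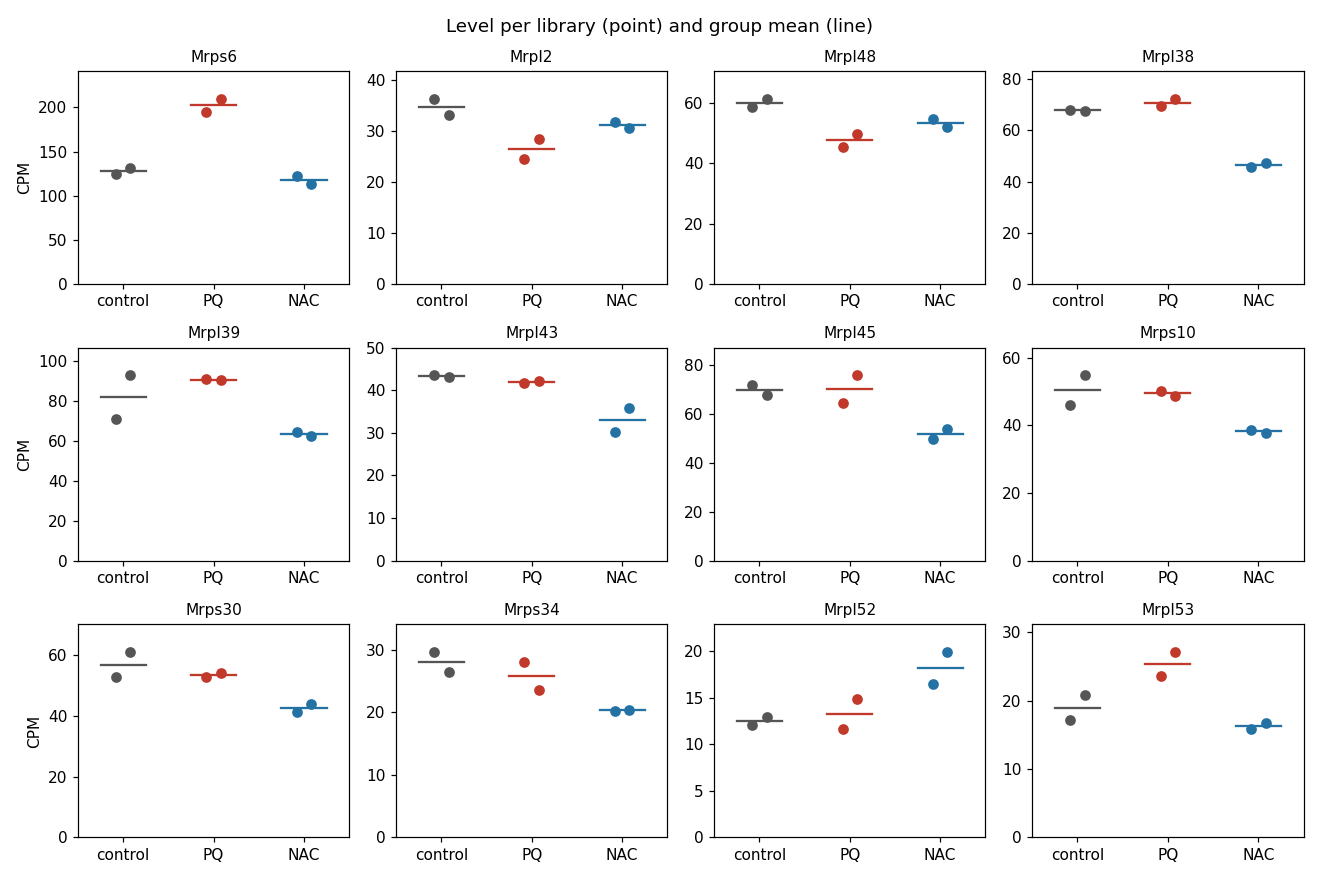
CPM of 12 genes in each library (points) with the group mean (line), on axes that start at 0. Mrps6 is highest in the PQ libraries, and Mrpl38, Mrpl45, Mrpl43, Mrps10, Mrps30 and Mrps34 are lowest in the NAC libraries, while Mrpl52 is highest there.

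PQ against NAC shares its libraries with the comparisons above and is no separate evidence for them. Here 14 of the 78 genes were higher with PQ and 3 lower, 17 in all (21.8%), against 30.6% of all genes tested. All genes were called higher in 15.5% and lower in 15.1%. Mrps6 stood 1.72-fold higher with PQ (0.78 ± 0.1, adjusted p = 6.4e-06, edgeR) and Mrpl38 1.53-fold higher (0.61 ± 0.1, adjusted p = 0.00015, edgeR), and in both no left-out library ended the call. Mrpl39, at 91.0 and 90.8 CPM with PQ and 64.5 and 62.7 CPM with NAC, differed by 0.51 ± 0.12 (adjusted p = 0.0023), also in each such fit. Mrpl53, a thioredoxin-like protein, stood at 23.6 and 27.1 CPM with PQ against 15.9 and 16.7 CPM with NAC (0.64 ± 0.15, adjusted p = 0.003), which became 0.056 without PQ 2. It shares 88.0% of its exonic bases, on the same strand, with Gm42688, a gene annotated as protein-coding that was not tested here, and how reads were divided between them was not tested.

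Mrpl45, with a log2 difference of 0.44, lost its call without PQ 2 (adjusted p = 0.12) or NAC 1 (0.061). Mrps36, the 2-oxoglutarate dehydrogenase component, read 31.8 and 34.7 CPM with PQ and 22.1 and 25.1 CPM with NAC (0.5 ± 0.13, adjusted p = 0.0068, edgeR), and its call ended without PQ 2 (0.082) or NAC 1 (0.091). The bS18 family did not move as 1 unit. Mrps18b (0.4, adjusted p = 0.017) and Mrps18c (0.42, adjusted p = 0.046) were called higher with PQ, and Mrps18a stood at -0.19 (adjusted p = 0.26). Mrps18c read 29.3 and 25.3 CPM with PQ and 21.5 and 19.2 CPM with NAC, and Mrps18b 33.3 and 35.9 against 26.5 and 25.8 CPM.

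The other 6 genes higher with PQ, Mrps10, Mrpl19, Mrps30, Mrpl43, Mrpl37 and Mrpl46, had log2 differences of 0.31 to 0.4. Lower with PQ were Mrpl23, a protein of the tunnel exit, at 28.8 and 30.8 CPM against 40.2 and 39.6 CPM with NAC (-0.42 ± 0.12, adjusted p = 0.0097, edgeR), Mrpl52 (-0.45, adjusted p = 0.046) and Mrps25 (-0.29, adjusted p = 0.046). Mrps25 shares 69.8% of its exonic bases with Nr2c2 on the other strand, which also was lower with PQ (-0.31 ± 0.09, adjusted p = 0.02, edgeR). Of the 17 calls 10 ended without PQ 1 (adjusted p 0.059 to 0.34), 12 without PQ 2 (0.056 to 0.25), 12 without NAC 1 (0.061 to 0.31) and 9 without NAC 2 (0.051 to 0.3). Among them, Mrpl23 ended without PQ 1 (0.083) or NAC 1 (0.064) and Mrpl52 without PQ 1 (0.34) or NAC 2 (0.3). Mrps18b ended without PQ 2, NAC 1 or NAC 2 and Mrpl43 without PQ 1, PQ 2 or NAC 1. Mrpl19, Mrpl37, Mrpl46, Mrps10, Mrps18c, Mrps25 and Mrps30 ended without any 1 of the 4. The genes called higher numbered 7 without PQ 1, 3 without PQ 2, 4 without NAC 1, 7 without NAC 2 and 16 without control 1 or control 2. DESeq2 called 6 higher and 1 lower. Shares of all genes called by DESeq2 or with a library left out are not given here.

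**Figure D4:**
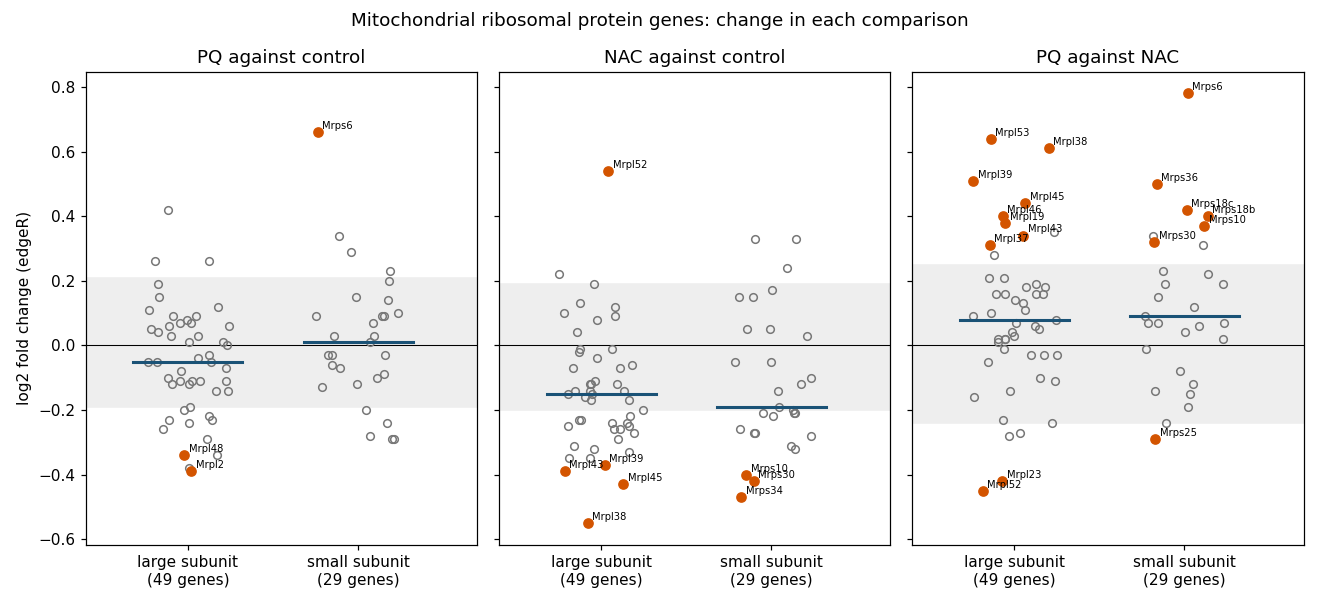
Log2 fold change of the 78 genes in the 3 comparisons, by subunit; filled points passed the test and are named, open points did not, thick lines are medians and the grey band spans the quartiles of all genes tested. Medians lie below 0 in NAC against control (-0.15 and -0.19) and above 0 in PQ against NAC (0.08 and 0.09).

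The median difference between PQ and NAC was 0.08 for the large and 0.09 for the small subunit, with quartiles of -0.24 and 0.25 over all genes. Estimates below 0 numbered 23 of 78 (29.5%, against 49.8%). In 35 of 78 genes both PQ libraries lay above both NAC libraries (44.9%, against 33.1% of all genes), and in 11 below (14.1%, against 32.9%). A fitted 1.5-fold difference was found for 3 members, Mrps6, Mrpl53 and Mrpl38, and for 18.9% of all genes. Over the 3 comparisons, 20 genes were called in at least 1 and 58 in none. Among the 58 were Mrpl42, Mrpl20, Mrpl12 and Mrpl30, which had the highest levels of the large subunit. Mrpl42 read 76.2 to 84.5 CPM over all 6 libraries.

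Of the 5 mitoribosomal proteins with other names (Dap3, Ptcd3, Chchd1, Aurkaip1 and Gadd45gip1), Chchd1 fell with NAC, from 65.1 and 64.6 CPM to 51.0 and 50.4 CPM (-0.36 ± 0.1, adjusted p = 0.019, edgeR). That call ended without NAC 1 (0.091) or NAC 2 (0.099) and with DESeq2 (0.052). Gadd45gip1 fell with PQ, from 56.9 and 60.2 CPM to 46.2 and 46.8 CPM (-0.33 ± 0.1, adjusted p = 0.031, edgeR), a call that ended without control 2 (0.13), PQ 1 (0.15) or PQ 2 (0.16) and with DESeq2 (0.084). The other 3 were called in no comparison. Against NAC, Chchd1 was higher with PQ (0.35, adjusted p = 0.012), a call that ended without PQ 1 (0.1), NAC 1 (0.064) or NAC 2 (0.067), and Gadd45gip1 was lower (-0.44, adjusted p = 0.003) in every fit with a library left out.

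Of the mitochondrial translation factors, which start, extend and end protein synthesis on this ribosome, 15 of the 16 listed were found (not Mtrfr). In each comparison edgeR called 0 of them. Of all genes it called 17.9% for PQ and 17.9% for NAC, each against control, and 30.6% between PQ and NAC. At an unadjusted p under 0.05 there were 2 in PQ against control, 2 in NAC against control and 1 in PQ against NAC, and DESeq2 called 0 in each. The share of all genes at that unadjusted p is not given here. Estimates of these factors were below 0 in 14 of 15 for NAC against control, where 50.3% of all genes were. Their median was -0.16. Of 29 assembly and rRNA modification factors, 1 rose and 1 fell with PQ, where 9.07% of all genes rose and 8.8% fell. With NAC 0 rose and 2 fell, where 8.65% and 9.26% of all genes did. Mterf4, which brings an rRNA methyltransferase to the large subunit, rose from 14.1 and 15 CPM to 22.9 and 22.7 CPM with PQ (0.65 ± 0.15, adjusted p = 0.0064, edgeR), a call that ended without PQ 2 (0.054). Tfb1m, the dimethyltransferase of the small subunit rRNA, read 11.3 and 14.3 CPM in control, 7.18 and 8.17 CPM with PQ and 8.81 and 8.12 CPM with NAC. It fell in both (-0.74, adjusted p = 0.01, and -0.6, adjusted p = 0.029). DESeq2 gave 0.065 and 0.18 and ended both calls. Without control 2 they became 0.11 and 0.24, the PQ call also ended without PQ 1 (0.086), and the NAC call without NAC 1 (0.085) or NAC 2 (0.15). Mterf3 fell with NAC (-0.45, adjusted p = 0.02), a call that ended without control 2 (0.08) or NAC 2 (0.16) and with DESeq2 (0.073). Against NAC, Mterf4 was higher with PQ (0.59), a call that ended without NAC 1 (0.11), and Noa1 lower (-0.39), a call that ended without any 1 of the PQ and NAC libraries (0.054 to 0.13) and with DESeq2 (0.081).

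Of 14 regulators of mitochondrial biogenesis and transcription, 0 rose and 4 fell with PQ, where 9.07% of all genes rose and 8.8% fell. With NAC 1 rose and 1 fell, where 8.65% and 9.26% did. Myc, a transcription factor known to drive ribosome and mitochondrial biogenesis, rose with NAC, from 89.9 and 78.8 CPM to 136.0 and 139.7 CPM (0.71 ± 0.1, adjusted p = 5e-05, edgeR), in every fit that left out 1 library. The PQ libraries held 79.0 and 82.7 CPM. Ppargc1b, a coactivator of mitochondrial genes, fell with PQ (-0.95, adjusted p = 0.007) and NAC (-0.74, adjusted p = 0.026). Without control 1 these became 0.095 and 0.27, and the PQ call also ended without PQ 2 (0.063), the NAC call without NAC 1 (0.18) and with DESeq2 (0.16). Gabpb2, a subunit of the ETS factor GABP, fell with PQ (-0.37, adjusted p = 0.015), which became 0.18 without PQ 2 and 0.085 to 0.11 in the limma fits on FPKM. Nrf1 and Tfam fell with PQ (adjusted p = 0.044 and 0.046), but of the 6 fits with a library left out the Nrf1 call held in 1, without control 1 (adjusted p in the others up to 0.2), and the Tfam call in 0 (0.061 to 0.19). Of 9 other settings 7 ended each of these 2 calls, DESeq2 among them (0.13 and 0.14). Against NAC, Myc (-0.77) and Gabpb2 (-0.5) were lower with PQ in every fit with a library left out, and Tfam was lower (-0.45), which ended without NAC 1 (0.067). Esrra was higher (0.39) and Pprc1 lower (-0.35), and both calls ended without any 1 of the PQ and NAC libraries (0.053 to 0.28) and with DESeq2 (0.13 and 0.1).

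The members' promoters were searched for motifs of factors known to control nuclear genes of mitochondria. A window of 250 bases before to 50 after the start was matched for 69 of the 78, and both strands were read. CCGGAAG, the ETS motif that GABP binds, was in 37.7% of the members, against 19.9% of the 10218 genes tested that had a window and 9.9% of all 27025. GCGCATGC, the NRF1 motif, was in 11.6%, 6.1% and 3.0%, and AAGATGGCG, the YY1 motif, in 11.6%, 3.6% and 1.6%. At least 1 of these 3 was in 52.2% of the members and 27.1% of the genes tested. The Sp1 motif GGGCGG was in 49.3%, against 69.1% of the genes tested, and the E-box CACGTG in 7.2%, against 11.8%, with a median GC content of 58.0% and 61.0%. Besides Mrpl39 and Mrpl43, printed above, no gene that fell with NAC and had a window held 1 of these 3, and 6 of the 12 matched genes that were higher with PQ than with NAC did (Mrpl37, Mrpl39, Mrpl43, Mrpl53, Mrps18b and Mrps18c). These matches are letters in a window and say nothing of binding.

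**Figure D5:**
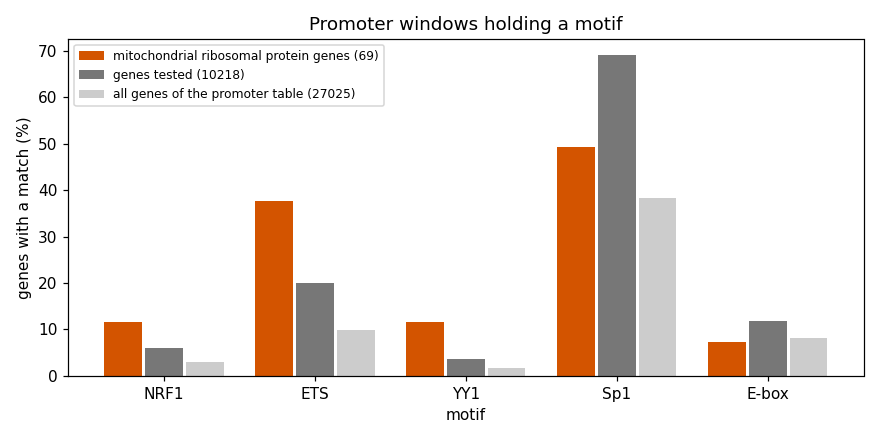
Share of genes (%) whose promoter window holds each motif, for the 69 members with a window, the 10218 tested genes and all 27025 genes of the promoter table. The ETS bar of the members (37.7%) stands above that of the tested genes (19.9%), and their Sp1 bar (49.3%) below (69.1%).

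Upstream neighbours were counted where a protein-coding gene starts on the opposite strand within 1000 bases and points away. Pairs whose starts overlap were not counted. Such a neighbour was annotated for 18 of the 78 members (23.1%), against 10.4% of 12021 protein-coding genes tested (GENCODE M21). The closest was Apba3, 26 bases from Mrpl54, and Mrpl49 starts 59 bases from Fau, a cytosolic ribosomal protein gene. Mrpl30 and Mitd1 start 66 bases apart and Mrpl32 and the proteasome gene Psma2 75 bases apart. Exonic bases were shared with another tested gene by 23 members: Mrpl9, Mrpl13, Mrpl14, Mrpl18, Mrpl19, Mrpl21, Mrpl24, Mrpl27, Mrpl36, Mrpl43, Mrpl44, Mrpl46, Mrpl47, Mrpl48, Mrpl49, Mrps6, Mrps7, Mrps11, Mrps24, Mrps25, Mrps26, Mrps27 and Mrps34. Mrpl46 and Mrps11 share 173 bases with each other, on opposite strands. Another 10 overlap only genes that were not tested: Mrpl3, Mrpl10, Mrpl12, Mrpl33, Mrpl51, Mrpl53, Mrpl58, Mrps18b, Mrps18c and Mrps30. Mrpl48 shares 8.7% of its exonic bases with Rab6a on the other strand, which rose with PQ (0.27 ± 0.09, adjusted p = 0.041, edgeR) while Mrpl48 fell. Expected counts were not whole in at least 1 library for 19 members.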

How the data were processed

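RNA was sequenced from 6 libraries of mouse neural stem and progenitor cell cultures. Per the labels' protocols RNA was extracted with TRIZOL, rRNA depletion and oligo dT selection are both listed, and libraries were primed with N6 random primers and sequenced on a BGISEQ-500. RSEM, HISAT2 2.0.4 and Bowtie2 2.2.5 are listed, with the genome mm10 but no role for each, per the submitters' processing notes. For each gene the deposited tables give FPKM, which is per length and library size, and an expected count, an estimate of reads per gene, per the file headers. A gene not listed in a table was set to 0.

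Entrez identifiers were matched to symbols in a RefSeq table (GRCm38.p6), 17199 of 17254; the others held 0.072% to 0.079% of the counts. Expected counts were rounded and tested with edgeR 4.0.16 (quasi-likelihood, R 4.3.3, limma 3.58.1) after TMM scaling; 12813 genes passed filterByExpr at a minimum total of 15 and a minimum count of 10. All 6 libraries entered a fit with a mean for each group (3 residual degrees of freedom). Benjamini-Hochberg adjustment ran over the 12813 genes, and genes under 0.05 were called. CPM are TMM-scaled, except marker sums, which are scaled to library size. SE is the absolute log2 fold change over the square root of F. Genes named were all members called, the 4 highest and lowest by FPKM in each subunit, the bS18 family, Mrpl12, and list genes called. Counts were simulated for PQ against control (12660 genes, 200 changed). On these the test found 82.1% of 1.5-fold and 98.5% of 2-fold changes, with a false share of 6.97%. The simulated spread followed the trend over level, with none particular to a gene, and the changed genes were taken above a minimum level. In the data 2289 genes were called in this comparison, so recovery there may differ.

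Alternatives were DESeq2 1.42.0, DESeq2 size factors, library size only, no filter, a robust fit, limma on log2(FPKM + 1) or log2(FPKM + 0.1), only the 2 groups compared, and each library left out. A block for the 2 runs of library numbers was added after seeing the data. The members and lists were chosen with earlier results of these data known. The motif letters, the promoters printed, and the overlapping and neighbouring genes (GENCODE M21) were chosen after values were seen. Identity between the bS18 proteins was planned and not computed. Figures were drawn with matplotlib 3.10.9.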

Additional observations from a re-analysis of the deposited data

How the results depend on the processing

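The labels give the groups no shared library number. The titles run 8, 9 and 10 and then 11, 12 and 13, with control, PQ and NAC once in each run, and a replicate block for these 2 runs was chosen after seeing the data (2 residual degrees of freedom). Differences between the runs correlated across genes at -0.07 for control and PQ, -0.11 for control and NAC and 0.11 for PQ and NAC; the reported values are from the fit without the block, which was set first. With the replicate block 20 of the 28 calls of members held. Members called lower in PQ against control were 0 in place of 2 (Mrpl2 0.069, Mrpl48 0.058), those called lower in NAC against control 6 in place of 7 (Mrpl39 0.06), and those in PQ against NAC 10 higher and 2 lower. Of all genes it called 14.4% for PQ and 14.8% for NAC, each against control, and 27.2% between PQ and NAC.

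Of the 28 calls of members, 4 held under every alternative, the block included (Mrps6 and Mrpl38, in 2 comparisons each), 5 whichever single library was left out, and 7 under the other 9 settings. DESeq2 called 11 of the 28. Of the 21 calls of other listed mitochondrial genes, 10 held with DESeq2, 16 with the replicate block, and 4 under every alternative, the block included (Myc in 2 comparisons, Gabpb2 and Gadd45gip1 in PQ against NAC). None of the called values changed sign.

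The number of members called higher in PQ against control, 1, was 3 scaled to library size only and with limma on log2(FPKM + 1) or log2(FPKM + 0.1), 2 without the filter and 2 with the robust fit, and 1 to 3 with a library left out. The number called lower, 2, was 0 scaled to library size only, 0 with DESeq2, 0 with limma without a filter, 1 in the fit of only the 2 groups, and 0 to 5 with a library left out. In NAC against control the calls higher, 1, were 2 scaled to library size only and with either limma fit on filtered genes, 0 with DESeq2 and with limma without a filter, and 0 to 1 with a library left out; the calls lower, 7, were 3 with DESeq2, 1 with limma without a filter and 2 to 11 with a library left out. In PQ against NAC the calls higher, 14, were 6 with DESeq2, 5 with limma without a filter and 3 to 16 with a library left out, and the calls lower, 3, were 1, 1 and 0 to 3. For these settings the share of all genes called is not given here. A change in the members cannot be told apart from a change in calls over all genes. The causes were not tested.

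The median of the large subunit in NAC against control, -0.15, was -0.11 scaled to library size only and -0.1 in the 3 limma fits, and -0.2 to -0.09 with a library left out. Counting genes by structure moved no median by more than the spread between libraries. In FPKM the large subunit sum with NAC was 93.9% and the small subunit sum with PQ 113.0% of control.

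Of 102 gene and comparison pairs followed for the named members, 24 not called changed sign under an alternative. Mrpl30 in PQ against control became 0.02 in the limma fits and 0.0 by library size, Mrpl42 in NAC against control 0.03 in both, and Mrps10 (0.01 by library size, 0.0 with limma), Mrps33 (0.0 in both) in PQ against control and Mrpl57 in NAC against control (0.0 by library size) lay at 0. With a library left out the ranges in PQ against control were -0.17 to 0.05 (Mrpl12), -0.03 to 0.22 (Mrpl20), -0.27 to 0.26 (Mrpl30), -0.05 to 0.06 (Mrpl35), -0.03 to 0.36 (Mrpl39), -0.11 to 0.04 (Mrpl42), -0.08 to 0.16 (Mrpl44), -0.12 to 0.12 (Mrpl45), -0.03 to 0.26 (Mrpl46), -0.11 to 0.26 (Mrpl52), -0.03 to 0.05 (Mrpl57), -0.15 to 0.11 (Mrps10), -0.2 to 0.08 (Mrps14), -0.19 to 0.02 (Mrps30) and -0.1 to 0.04 (Mrps33). In NAC against control they were -0.23 to 0.01 (Mrpl20), -0.36 to 0.17 (Mrpl30), -0.08 to 0.07 (Mrpl42), -0.19 to 0.09 (Mrpl57), -0.38 to 0.05 (Mrps18c) and -0.07 to 0.19 (Mrps25), and in PQ against NAC 0.0 to 0.11 (Mrpl35), -0.08 to 0.04 (Mrpl42) and -0.08 to 0.2 (Mrpl57). No named member called in a comparison is among these pairs in that comparison. Another 6 pairs not called passed under an alternative. With 2 libraries a group, changes can be missed. On simulated counts the test found 82.1% of 1.5-fold and 98.5% of 2-fold changes, and smaller ones were not simulated.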
